A study of Ettlia oleoabundans with 10 samples.

Results

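The mild-salt experiment set 1 culture of the green alga Ettlia oleoabundans with 75 mM NaCl against 3 cultures with ample nitrate, which had 1.5 mM nitrate, 3 mM nitrate, and 9 mM nitrate with 42 mM NaCl (the control of the study). These 4 libraries were taken, by their labelled concentrations, from the 10 libraries of the series. All were of strain UTEX # 1185 and were grown on light alone at 25 °C for 6 days under constant light, in Bold Basal Medium modified for the study. The labels give no nitrate concentration for the 75 mM NaCl culture and no NaCl concentration for the cultures with 1.5 and 3 mM nitrate, so only the control is labelled for both. The 3 nitrate cultures are called replete here because their transcript levels served together as the low-salt background.

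Salt outside a cell draws water out of it and brings in sodium. Walled green algae are known to answer with small compatible solutes such as proline, sugars or glycerol, with the export of sodium, and with proteins that limit oxidative damage. E. oleoabundans stores oil and is grown in fresh as well as in saline media. Because the deposited table pairs none of its scaffold families with a gene name, none of these functions could be looked up, and families are given by their own numbers.

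Each condition had 1 library, so the range over the 3 replete libraries was the only spread available. These libraries differ in nitrate and are not replicates, and the labels do not say whether the cultures were grown in parallel. The title code of the 75 mM NaCl library (c3) differs from those of the replete libraries (c8, c1 and c2), so salt and whatever the code marks cannot be told apart. The table lists 10122 families. Its values are expression levels that appear to have been scaled by the authors for length and depth, with the read depth unknown. Library totals were 590316 at 75 mM NaCl and 473578, 511359 and 477174 at 1.5, 3 and 9 mM nitrate. At 75 mM NaCl 380 families were listed at 0, against 948 to 1021 in the replete libraries. The part of these differences in the results below was not tested.

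The 75 mM NaCl library stood farther from each replete library than the replete libraries stood from one another. Values were taken as log2(value + 1) and each library was centred on its median, over the 8697 families whose mean value in the 4 libraries reached 1. The number of families at least 1 log2 unit apart (2-fold on this scale) was 829 between 75 mM NaCl and 1.5 mM nitrate, 833 between 75 mM NaCl and 3 mM nitrate, and 880 between 75 mM NaCl and the control. Among the replete libraries it was 38 between 1.5 and 3 mM nitrate, 199 between 3 mM nitrate and the control, and 425 between 1.5 mM nitrate and the control. The median absolute difference over families was 0.30 to 0.32 log2 units for the pairs with 75 mM NaCl and 0.16 to 0.26 for the pairs of replete libraries. Across families, which are not independent replicates, Pearson's r was 0.917 to 0.925 for the pairs with 75 mM NaCl and 0.964 to 0.988 for the replete pairs.

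**Figure D1:**
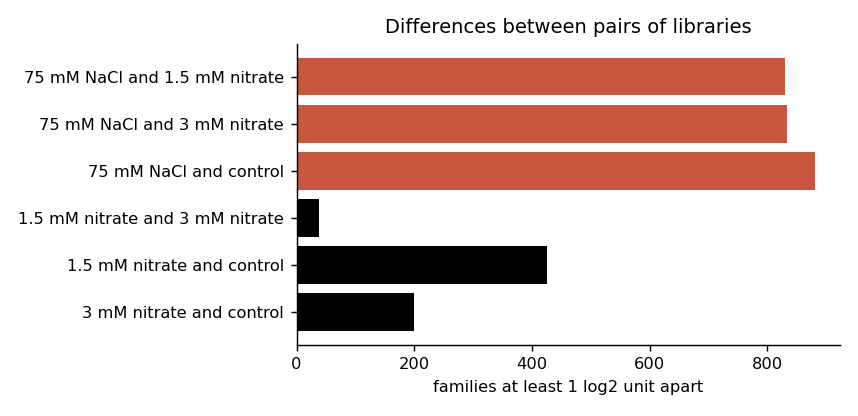
Number of families (of 8697) at least 1 log2 unit apart in each pair of the 4 libraries; coloured bars are pairs with the 75 mM NaCl library and black bars are pairs of replete libraries. Pairs with 75 mM NaCl have 829 to 880 such families, and the replete pairs have 38 to 425.

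At 75 mM NaCl 347 families lay at least 1 log2 unit above the highest replete library (3.99% of the families tested) and are called raised, and 144 lay at least 1 log2 unit below the lowest (1.66%) and are called lowered. Raised families were thus 2.41 times as many as lowered ones. The remaining 8206 families met neither condition, and 2936 (33.8%) lay inside the replete range. With no minimum distance, the balance was different, with 2719 families above the range and 3042 below it. The raised families lay a median of 1.60 log2 units outside the range and the lowered ones 1.42. At least 2 log2 units above the range were 124 families (1.43% of those tested), and 33 were as far below it (0.379%). Close to the threshold, 50 families were between 1 and 1.1 log2 units above the range and 49 between 0.9 and 1, the nearest at 1.002 and 0.9933. On the lower side, 27 families were just past the threshold and 42 just short of it.

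The balance between the directions depended on which libraries 75 mM NaCl was set against and on scaling. Against the control alone, 439 families were at least 1 log2 unit higher at 75 mM NaCl (5.05%) and 441 were lower (5.07%), so neither direction was in excess there. Before centring, the median log2(value + 1) was 4.53 at 75 mM NaCl against 4.29 in the control to 4.40 at 3 mM nitrate. Without centring, 448 families were raised and 96 lowered.

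**Figure D2:**
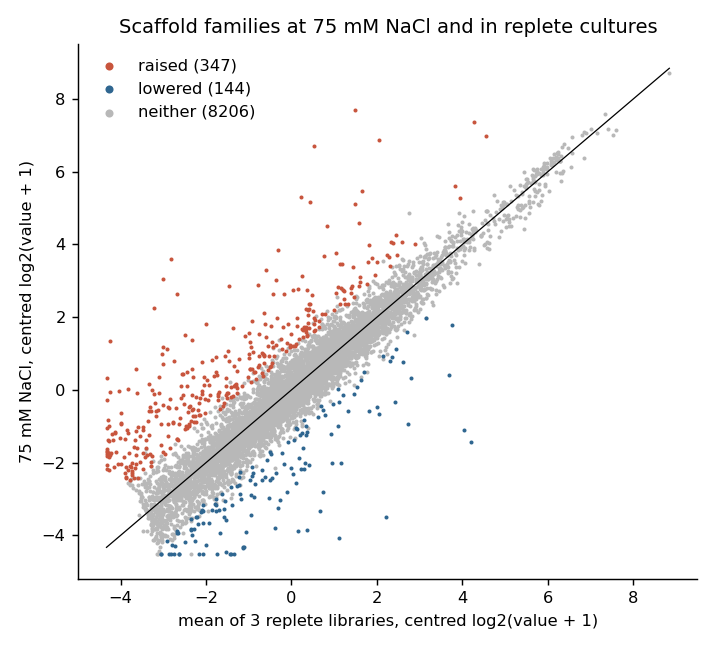
Centred log2(value + 1) of each of 8697 families at 75 mM NaCl (vertical axis) against its mean over the 3 replete libraries (horizontal axis); the line marks equal levels. Most families lie along the line, with 347 raised families above it and 144 lowered families below it.

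A moderated test gave similar numbers. In limma, 364 families were higher at 75 mM NaCl than the mean of the replete libraries (4.19%) and 136 were lower (1.56%; Benjamini-Hochberg adjusted p under 0.05), and 1880 passed at an unadjusted p under 0.05. This test takes the lone 75 mM NaCl library to vary as the replete libraries do, so its error holds any response to nitrate between them. Of the raised families 303 of 347 passed, and of the lowered families 102 of 144, which restates the same 4 values in another form and is no separate support. The same holds for the limma values of the families named below, which were chosen on these 4 values. The counts rested on the choice of replete libraries: they were 919 higher and 655 lower without the control, and 86 higher and 24 lower without 3 mM nitrate. With the rank of nitrate as a covariate, more families were lower than higher, so that the larger share changed sides. That model gave the 75 mM NaCl culture the rank of the control, although no label gives its nitrate.

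Many raised families had low values in the replete libraries. Their median value was 28.91 at 75 mM NaCl, while the median of their replete means was 5.24. In 59 of them all 3 replete libraries were under 1, and 39 of these had at least 5 at 75 mM NaCl. Like counts over all families tested are not given here, so these describe the raised families only. The filter on low values bears on this group: 116 families passed it only because of their 75 mM NaCl value, and 75 of the 347 raised families were among them, while no lowered family was. Among the 8581 families with a replete mean of at least 1, 272 were raised and 144 lowered. At the abundant end, 120 raised families had at least 10 in every replete library, and 7 had at least 1000 at 75 mM NaCl.

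Lowered families had a median value of 2.75 at 75 mM NaCl and a median replete mean of 12.53. In 41 of the 144 the value at 75 mM NaCl was under 1, including 13 that were listed at 0. Values of at least 5 in every replete library and under 1 at 75 mM NaCl were found in 7 families. At least 10 in every replete library was found in 71 lowered families and at least 100 in 6. No lowered family had 100 or more at 75 mM NaCl. The rule sets the direction of these values. Over all families tested, 16 were listed at 0 at 75 mM NaCl, and the other counts are not given for them.

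When the tested families were divided into 4 groups of equal size by their mean log2(value + 1) over the libraries compared, the lowest group held 181 raised and 72 lowered families, or 8.32% and 3.31% of its 2175 members. All 116 families that passed the filter only through 75 mM NaCl fell in this group, and of these 75 were raised and none lowered. In the upper 3 groups 2.39% to 2.71% of families were raised and 0.736% to 1.61% lowered. The replete libraries also spread most in the lowest group, where the median range was 0.465 log2 units, against 0.274 to 0.329 in the others.

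**Figure D3:**
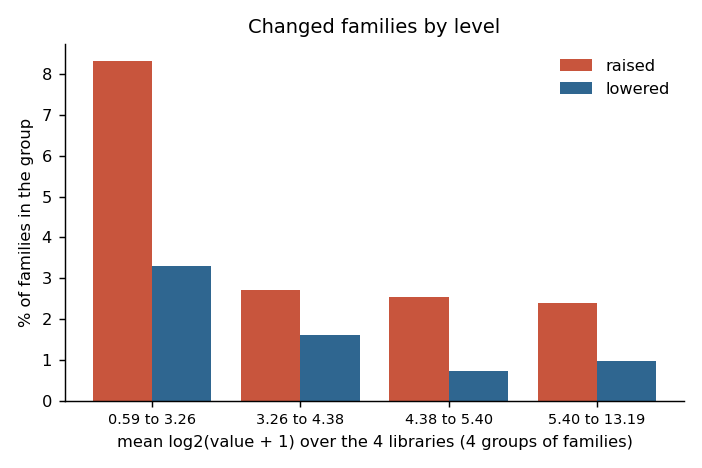
Percentage of families raised and lowered at 75 mM NaCl (vertical axis) in 4 groups of the 8697 families by mean log2(value + 1) over the libraries compared (horizontal axis, limits of each group). The lowest group has 8.32% raised and 3.31% lowered families, and each of the other groups has under 3% of either.

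The transcript farthest above the replete range was family 129_c0. Its value was 2427.64 at 75 mM NaCl, against 24.86 at 1.5 mM nitrate, 25.26 at 3 mM nitrate and 34.6 in the control, which is 86 times the replete mean. The replete libraries were close together and none approached the salt culture. The limma difference was 6.20 ± 0.25 log2 units (SE, adjusted p = 0.00104). In the other salt cultures the level was higher still, with 7493.81, 8341.75 and 7185.76 at 150, 300 and 600 mM NaCl. Under low nitrate it was 13.81 to 22.17, below all 3 replete libraries.

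Family 47_c0, the next farthest, had another pattern. It had 57.55 at 75 mM NaCl, the value through which it passed the filter on low values. At 1.5, 3 and 9 mM nitrate it had 0, 0.12 and 0.05 (limma difference 5.597 ± 0.276, SE, adjusted p = 0.00142). Its highest values were not in salt but under low nitrate, with 602.96 in the culture without nitrate, 381.91 with 0.38 mM and 1243.04 with 0.75 mM. In the stronger salt cultures it had 8.82, 80.21 and 17.15 at 150, 300 and 600 mM NaCl, so it was present in every salt culture with no order by concentration.

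The family with the highest value among the raised ones, 69_c0, was picked after seeing the data. It had 4780.85 at 75 mM NaCl, against 23.4 at 1.5 mM nitrate, 41.81 at 3 mM nitrate and 173.51 in the control. The control was the highest of the replete libraries, and the salt culture lay 4.54 log2 units above it. The limma difference was 6.20 ± 1.01 log2 units (SE, adjusted p = 0.0259). Without the library of 3 mM nitrate the difference was 5.96 (limma, adjusted p = 0.0748), and over its alternatives the adjusted p ran from 1.67e-07 to 0.0748. At 150, 300 and 600 mM NaCl the values were 10677.56, 16709.25 and 16069.19.

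Farthest below the replete range was family 4728_c0, with 0.38 at 75 mM NaCl, against 42.24, 43.31 and 41.47 at 1.5, 3 and 9 mM nitrate. The 3 replete values were nearly equal, and the replete mean was 111 times the salt value. The limma difference was -5.17 ± 0.17 log2 units (SE, adjusted p = 0.00104). It had 0.05 to 0.4 in the stronger salt cultures and 31.88 to 36.16 under low nitrate, so its salt and nitrate cultures did not overlap.

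Family 4048_c0 followed, with 1.04 at 75 mM NaCl, against 115.3, 113.15 and 58.7 at 1.5, 3 and 9 mM nitrate (limma difference -5.70 ± 0.38, SE, adjusted p = 0.00295). It too was low in every salt culture, with 1.05 to 1.9 at 150 to 600 mM NaCl, and high in every nitrate culture, with 73.41 to 107.62 at 0 to 0.75 mM.

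Family 534_c1 was the lowered family with the highest replete mean, was picked after seeing the data, and was far less even. It had 7.59 at 75 mM NaCl, against 1187.33 at 1.5 mM nitrate, 787.13 at 3 mM nitrate and 52.28 in the control. The control lay between the salt culture and the other replete cultures. The limma difference of -5.62 ± 1.64 log2 units (SE) did not pass (adjusted p = 0.127). Without the control the difference was -7.00 (limma). With the rank of nitrate as a covariate, and 75 mM NaCl given the rank of the control, it was -3.38 (limma). Its values were at most 1.22 in the stronger salt cultures and at most 0.06 under low nitrate.

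**Figure D4:**
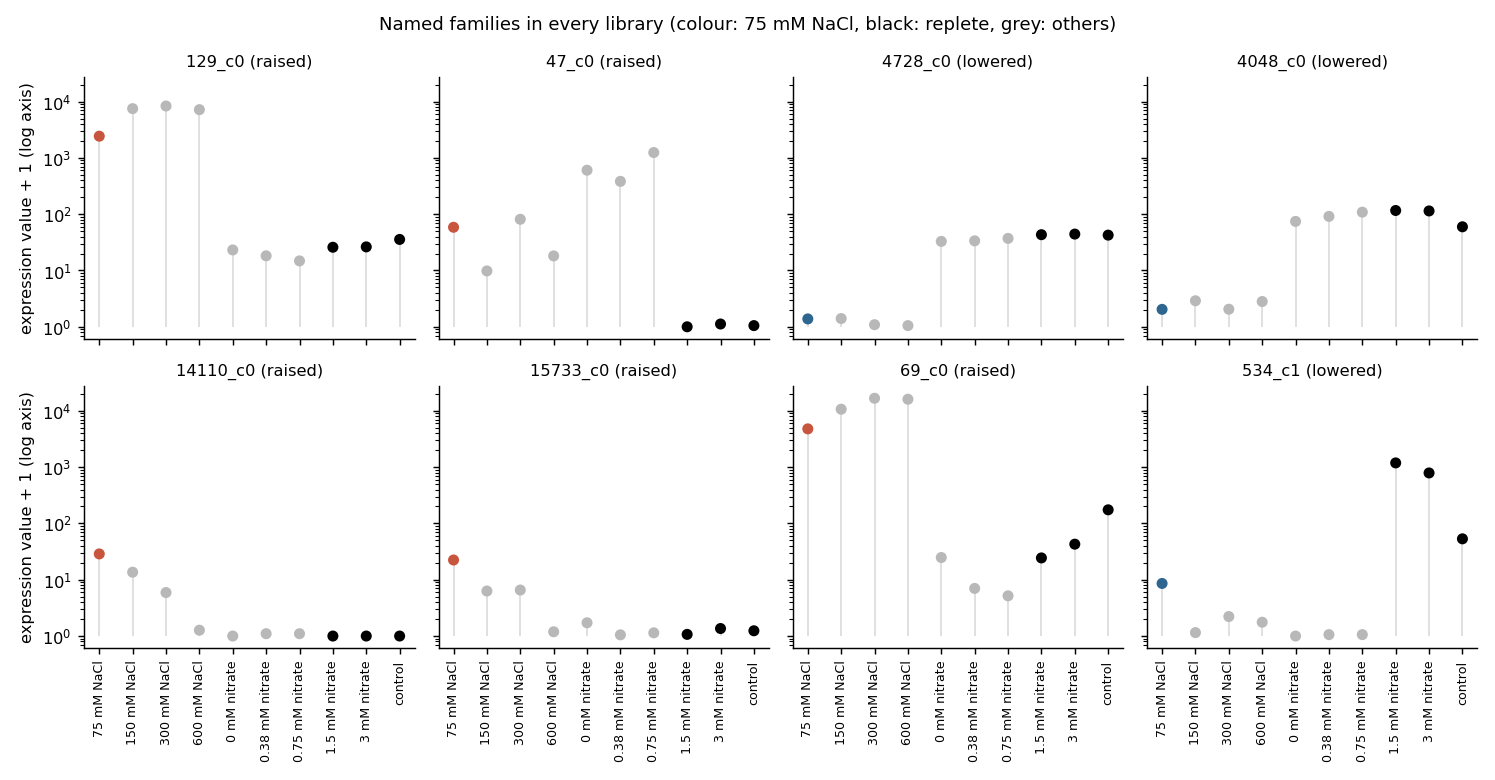
Expression value + 1 (log axis) of 8 named families in each of the 10 libraries; the coloured point is 75 mM NaCl, grey points are the stronger salt and low-nitrate libraries, and black points are the replete libraries. Families 129_c0 and 69_c0 are high in all salt libraries, 14110_c0 and 15733_c0 are highest at 75 mM NaCl, and 4728_c0 and 4048_c0 are low in the salt libraries alone among these 10.

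Among the replete libraries, the control was the one most often nearest to the raised level. It was the highest replete library in 208 of the 347 raised families (59.9%) and in 41.8% of all families tested. The library of 3 mM nitrate was highest in 43 raised families (12.4%, against 23.4% of all tested). The rule measures from the highest replete library, so these values were part of the choice. Levels were also centred on library medians of 4.290 in the control, 4.295 at 1.5 mM nitrate and 4.403 at 3 mM nitrate. A family listed at 0 in all 3 replete libraries, as 9 raised families were, was thus always counted as highest in the control. The part of this in the counts was not tested. In the lowered families the control was the lowest replete library in 59 of 144 (41%, against 37.5% of all tested). The median range within the replete libraries was 0.33 log2 units in raised families, 0.41 in lowered families and 0.33 in the rest. The rule measures from the ends of this range, so the choice bears on these medians.

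The levels of the changed families were then followed through the 6 libraries that played no part in choosing them. A pair of these, 0.38 mM nitrate and 150 mM NaCl, carry title codes beginning with RAA where the others have c codes, and each listed 202 of the tested families at 0; the part of this in their values was not tested. All differences are from the same replete mean, so the libraries share it and their values are given side by side without a test. The median of the raised families above the replete mean was 1.81 log2 units with 75 mM NaCl, 1.87 with 150 mM, 1.71 with 300 mM and 1.88 with 600 mM. The central 80% of families ran from 1.22 to 3.42 log2 units at 75 mM, where the rule bounds it from below, and from -0.56 to 4.50 at 600 mM NaCl, where it does not. Under low nitrate the raised families had medians of 0.64 without nitrate, 0.23 with 0.38 mM and 0.32 with 0.75 mM. For the 8206 families that were neither raised nor lowered, every median in these libraries was between -0.04 and 0.01. Centring each library on its median over all families tested sets these medians near 0. The central 80% of these families ran from -1.25 to 1.19 at 600 mM NaCl.

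The lowered families had a median of -1.67 log2 units from the replete mean with 75 mM NaCl, -2.03 with 150 mM, -2.51 with 300 mM and -2.30 with 600 mM. Under low nitrate their medians were -1.16 without nitrate, -0.34 with 0.38 mM and 0.09 with 0.75 mM. The central 80% at 0 mM nitrate ran from -3.61 to 0.40, so that many, not all, of these families were also low without nitrate. Of the 144 families, 13 were listed at 0 with 75 mM NaCl, 25 with 150 mM, 35 with 300 mM and 40 with 600 mM, against 5, 21 and 0 with 0, 0.38 and 0.75 mM nitrate and 0 in each replete library. Over all families tested the zeros also differed between libraries, with 16, 202, 141 and 230 at 75, 150, 300 and 600 mM NaCl, 92, 202 and 10 with 0, 0.38 and 0.75 mM nitrate, and 15 to 19 in the replete libraries.

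**Figure D5:**
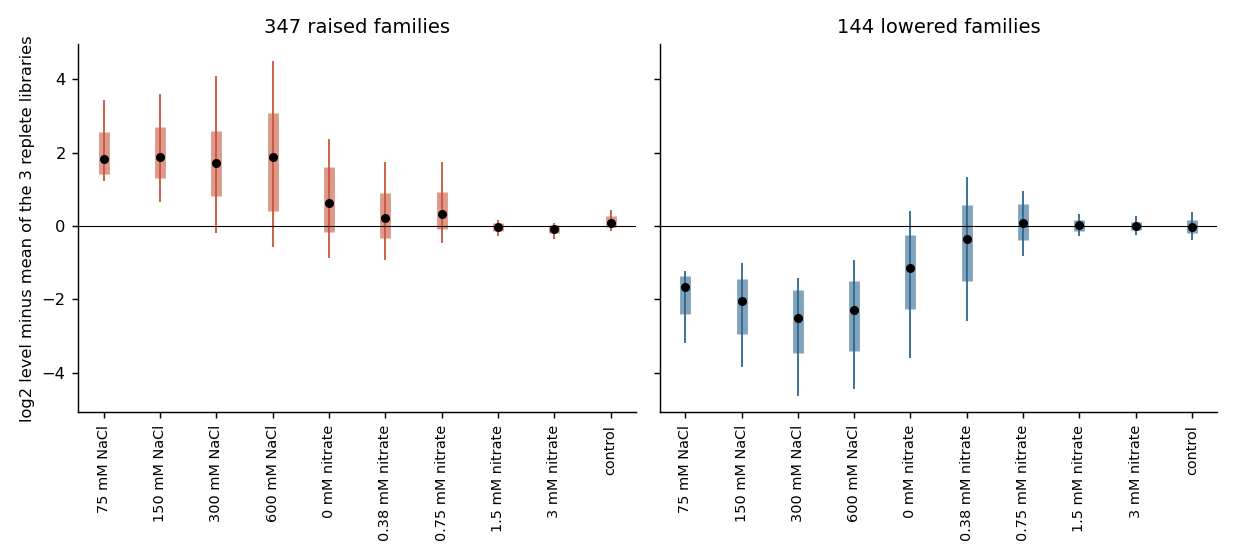
Level of the 347 raised and 144 lowered families in each library as log2 difference from the mean of the 3 replete libraries; points are medians, thick bars the central 50% and thin lines the central 80% of families. Raised families have medians of 1.71 to 1.88 in the 4 salt libraries, and lowered families have medians of -1.67 to -2.51.

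As a share of the library total, the raised families made up 7.31% at 75 mM NaCl, against 1.29%, 1.27% and 1.50% at 1.5, 3 and 9 mM nitrate. They held 14.1%, 13.7% and 20.1% at 150, 300 and 600 mM NaCl and 2.30% to 3.88% under low nitrate. The choice of raised and lowered families builds in the contrast between 75 mM NaCl and the replete libraries. Abundant families weigh on these shares. Family 69_c0 alone had 4780.85 of the total of 590316 at 75 mM NaCl, and 16069.19 of 571998 at 600 mM. Another raised family had 3769.75 at 75 mM NaCl and 23630.26 at 600 mM, more than 69_c0 had there. The lowered families held 0.194% at 75 mM NaCl, against 1.202%, 1.106% and 0.844% in the replete libraries, and 0.0879% to 0.164% in the stronger salt cultures. With the families called under equal column totals the lowered share at 75 mM NaCl was 0.308%, with those called without the control 0.31%, and with those called without centring 0.0926%.

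Single raised families differed from their 75 mM level in both directions. Measured against their own 75 mM level, which the choice of these families used, 56 raised families were at least 1 log2 unit higher at 150 mM NaCl and 61 at least 1 lower, with 230 (66.3%) in between. At 600 mM NaCl 98 were at least 1 log2 unit higher than at 75 mM and 122 lower, with 127 (36.6%) in between. Of the families that were neither raised nor lowered, 88.2% at 150 mM and 79.1% at 600 mM NaCl stayed within 1 log2 unit of their 75 mM level. Of the lowered families, 51 were at least 1 log2 unit lower still at 600 mM NaCl and 14 were at least 1 higher.

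Over all 10 libraries, 89 of the 347 raised families had their highest level with 75 mM NaCl, 48 with 150 mM, 49 with 300 mM and 105 with 600 mM, and the other 56 had it under low nitrate. Low nitrate thus held the highest level in 16.1% of the raised families, against 41% of all families tested. The shares of all families tested were 2.54%, 8.82%, 10.6% and 17.7% with 75, 150, 300 and 600 mM NaCl. Lowered families had their lowest level at 75 mM NaCl in 14 of 144, at 150 mM in 37, at 300 mM in 62 and at 600 mM in 18, while 2.86%, 11.4%, 13.5% and 15.6% of all families tested had it there. The choice of these families by their 75 mM value bears on all of these counts. By the rule no raised family could be highest, and no lowered family lowest, in a replete library. Any other library had to pass the chosen 75 mM level to hold the extreme. The share under low nitrate is thus not free of the choice. Levels were centred on library medians, so among values of 0 the lowest level fell in the library with the highest median. Those medians were 4.64, 4.53, 4.52 and 4.33 at 150, 75, 300 and 600 mM NaCl. A family listed at 0 at both 300 and 600 mM was thus never counted as lowest at 600 mM. Of the lowered families 35 were listed at 0 at 300 mM and 40 at 600 mM. The part of this in the counts of 62 and 18 was not tested.

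In 30 of the raised families (8.65%) the 75 mM NaCl level was at least 1 log2 unit above each stronger salt culture as well, which was so for 118 of all families tested (1.36%). The rule sets the order of 75 mM against the other salt cultures, and 16 of the 30 passed the filter on low values only because of their 75 mM value. Over the salt series their median value was 20.84 with 75 mM NaCl, 6.69 with 150 mM, 2.63 with 300 mM and 0.885 with 600 mM, against 0.64 to 1.22 in the replete libraries. The median at 600 mM was thus within the replete medians. With 0, 0.38 and 0.75 mM nitrate the medians were 0.725, 0.525 and 2.47, and 5 of the 30 had a higher level under low nitrate than at 75 mM NaCl. Of these 30, 18 averaged 5 or more over the 4 libraries. The reverse pattern, lowest at 75 mM by the same margin, was found in 2 lowered families, neither averaging 5 or more.

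Family 14110_c0, farthest outside the replete range among the 18, had 27.74 at 75 mM NaCl, the value through which it passed the filter, and was listed at 0 in all 3 replete libraries. It had 12.61, 4.92 and 0.27 at 150, 300 and 600 mM NaCl, and at most 0.1 under low nitrate. The limma difference on the log2(value + 1) scale was 4.65 ± 0.30 (SE, adjusted p = 0.00262). Family 15733_c0 was next, with 21.41 at 75 mM NaCl, the value through which it too passed the filter. It had 0.07, 0.36 and 0.24 at 1.5, 3 and 9 mM nitrate (limma difference 4.01 ± 0.30, SE, adjusted p = 0.0034). It had 5.3 and 5.56 at 150 and 300 mM NaCl and 0.19 at 600 mM, where it was back among the replete values.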

How the data were processed

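Poly(A)-selected RNA was sequenced on the Illumina platform, 1 library per condition. The deposited table gives signal values per scaffold family, which appear from their steps and totals to have been scaled by the authors for feature length and depth. Neither a label nor the table states the exact unit, the reference or how families were formed. RSEM 1.2.0, Bowtie 0.12.8 and edgeR 3.0.8 are listed in the submitters' processing notes, without their use. No counts were given, so no counting interval was computed, and the single library per condition limits precision.

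Families with a mean of at least 1 over the 4 libraries were kept, log2(value + 1) was taken and each library was centred on its median. Fold changes on this scale understate changes of low families. The test was limma 3.58.1 (R 4.3.3) with a prior variance that follows the mean level and 2 residual degrees of freedom. Benjamini-Hochberg adjustment was over all families tested. The code was run on simulated libraries that all had the same spread. That run cannot show error rates for libraries that are not replicates. Named families were the 2 raised and 2 lowered farthest outside the replete range with a mean of at least 5, and likewise among those peaking at 75 mM NaCl (no lowered family qualified); others are marked in the text. Lists of salt-response genes could not be matched to families. The comparison, thresholds and naming rules were chosen with earlier results of these data known. Alternatives were other scalings, pseudocounts, filters, distances, reference libraries, and limma models. The model with the rank of nitrate assumed the rank of the control for the 75 mM NaCl culture. Fewer residual degrees of freedom were left by this model and by those without a replete library.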

Additional observations from a re-analysis of the deposited data

How the results depend on the processing

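The counts of raised (347) and lowered (144) families stayed within 1.5 times of these values under median-ratio or equal-total scaling, no centring, and a minimum mean of 0 or 5. With a pseudocount of 0.1, 219 were lowered, and with 5, 221 were raised and 57 lowered. A minimum distance of 1.5-fold gave 623 and 442, one of 2 log2 units gave 124 and 33, and the control alone gave 441 lowered. Leaving out 1 replete library gave 365 to 458 raised and 162 to 208 lowered. Apart from shifts of centring and filter, fewer replete libraries can only keep or narrow the range, so higher counts are built in. The limma counts (364 and 136) became 86 to 919 higher and 24 to 655 lower with 1 replete library left out, and 889 and 999 with the rank of nitrate as a covariate. All 8 named families kept their side and stayed at least 1 log2 unit outside the replete range in all 11 alternatives. They were chosen for their distance or level, and fewer replete libraries could hardly shorten the distance, so this is no separate support. No limma difference changed sign. The call of 69_c0 was lost once and that of 534_c1 gained under 2 of 12 alternatives.

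Medians from the replete mean were recomputed for the same families, a choice made after seeing the data. With a minimum mean of 5, only those of these families that passed that filter could be counted. Without centring, raised families had 2.01, 2.18 and 1.91 at 75, 150 and 300 mM NaCl and lowered ones -1.47, -1.72 and -2.32. With equal totals, raised families had 0.40 at 0.38 mM nitrate and 1.42 and 1.67 at 300 and 600 mM NaCl, and lowered ones -0.084 at 0.38 mM nitrate. With a pseudocount of 0.1, raised families had 2.19, 2.19, 1.98 and 2.15 at 75, 150, 300 and 600 mM NaCl and 0.94 and 0.51 at 0 and 0.75 mM nitrate, and lowered ones -2.19, -2.79, -3.86 and -3.94 in salt and -1.35 at 0 mM nitrate. With a pseudocount of 5, raised families had 1.28, 1.34, 1.28 and 1.34 in salt and 0.34 at 0 mM nitrate, and lowered ones -1.12, -1.26, -1.48, -1.31 and -0.67. With a minimum mean of 5, raised families had 0.89 at 0 mM nitrate, and lowered ones -1.86, -2.30, -3.12 and -2.93 in salt and -1.55 at 0 mM nitrate. The cause of these shifts was not tested. Depth is unknown, so low families are the least certain.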
